A study of Mus musculus with 138 samples.

Results

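The genes described here encode the nuclear part of the mitochondrial respiratory chain and of ATP synthase, with a few of their assembly factors. They were chosen by name alone: every gene of the deposited count tables whose symbol begins with Nduf followed by a, b, c, s or v, with Uqcr, with Atp5, or with Cox4, Cox5, Cox6, Cox7 or Cox8, and the genes Sdha, Sdhb, Sdhc and Sdhd. Of 25900 genes, 91 matched, and 90 remained once a name ending in -ps, a pseudogene, had been dropped. They comprise 36 subunits of complex I (7 core and 29 accessory), 4 assembly factors of complex I, 4 subunits of complex II, 8 of complex III, 20 genes placed with complex IV and 17 placed with complex V. The last gene is Cox4nb, an older symbol of Emc8, which is not a subunit of the chain and was taken in by its name. The genes placed with complex V were placed by an Atp5 name alone, Atp5sl among them, so not all need be parts of ATP synthase.

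The libraries hold polyadenylated RNA of mouse 2-cell embryos, with 1 embryo well per library, and address what loss of the chromatin remodeller SMARCA5 does to transcription when the embryonic genome is first switched on. In the deletion experiment, embryos labelled Smarca5 +/- (mat KO), called maternal deletion here and bred from Smarca5 mat KO females and wild type males, were set against embryos labelled Smarca5 +/+, called wild type. In TrimAway, an antibody introduced into the cell has its target protein degraded through the ubiquitin ligase TRIM21, and wild type embryos injected as zygotes and collected at least a day later, labelled a-Smarca5 were set against embryos labelled IgG and embryos labelled No injection ctrl, called uninjected. The kept libraries, those with at least 100000 counts, numbered 22 wild type, 28 maternal deletion, 31 anti-SMARCA5, 20 IgG and 15 uninjected. The labels give no strain and no Cre driver. Both groups of the deletion experiment carry matKO females in their titles, which leaves the mothers undistinguished, and the labelled genotype of the embryo differs between the groups as well. The replicate numbers mark pools of embryos, from several matings each in the deletion experiment, and the study's text calls them technical, so p-values measure the spread between these embryo libraries, which may be partly technical.

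The chain passes electrons from NADH, at complex I, and from succinate, at complex II, to ubiquinone, on through complex III and cytochrome c, and at complex IV to oxygen. Complexes I, III and IV move protons out of the mitochondrial matrix, and complex V, ATP synthase, uses their return to make ATP. Most subunits are encoded in the nucleus and imported, while a small set is encoded in mitochondrial DNA. The egg brings its mitochondria and a store of maternal messages to the embryo, and in the mouse much of that store is cleared by the 2-cell stage while the embryo's own genome takes over. In whole embryos, fewer cells and less RNA per cell cannot be told apart, and neither can stored maternal RNA and new transcripts of the same gene.

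Promoters of such genes are known for sites of NRF-1, of GABPA (an ETS factor also called NRF-2) and of YY1. RefSeq promoters, taken on GRCm38.p6 from 250 bases before to 50 bases after the start, were matched for 71 of the 90 genes. The letters GCGCATG, the NRF-1 core, were found on either strand in 14 of the 71, or 19.7%, against 5.4% of 17491 protein-coding genes. The ETS letters CCGGAAG were found in 17, or 23.9%, against 12.9%, and the YY1 letters ATGGCGG in 10, or 14.1%, against 6.0%. A match of the NRF-1 core can share bases with one of YY1, and a match is a description of the sequence, not of binding. Among the genes with a promoter, the NRF-1 core was present in 3 of the 10 that were higher after the maternal deletion, 2 of the 15 that were lower and 8 of the 31 that were tested and not called. For the ETS letters these counts were 2 of 10, 4 of 15 and 9 of 31, and for the YY1 letters 1 of 10, 1 of 15 and 6 of 31.

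The 250 bases before the RefSeq start of 5 genes are shown, 5′ to 3′ along the strand of the gene, because the results turn on them: a pair of complex III genes that moved in opposite directions after the deletion, the complex I assembly factor that was higher after the deletion and against uninjected embryos, and the alternative Cox6b isoforms of complex IV. Capitals mark matches to the motifs above, and all 5 regions are on GRCm38.p6. The region of Uqcrfs1 is chr13:30545317-30545566 on the minus strand, that of Uqcr11 is chr10:80406822-80407071 on the minus strand and that of Ndufaf4 is chr4:24897833-24898082 on the plus strand. The region of Cox6b1 is chr7:30626115-30626364 and that of Cox6b2 is chr7:4753095-4753344, both on the minus strand.
Uqcrfs1: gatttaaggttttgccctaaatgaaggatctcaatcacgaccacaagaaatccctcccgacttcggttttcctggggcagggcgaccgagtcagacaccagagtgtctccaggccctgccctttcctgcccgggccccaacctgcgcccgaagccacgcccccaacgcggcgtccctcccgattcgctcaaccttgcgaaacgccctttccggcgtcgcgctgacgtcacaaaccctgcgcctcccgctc
Uqcr11: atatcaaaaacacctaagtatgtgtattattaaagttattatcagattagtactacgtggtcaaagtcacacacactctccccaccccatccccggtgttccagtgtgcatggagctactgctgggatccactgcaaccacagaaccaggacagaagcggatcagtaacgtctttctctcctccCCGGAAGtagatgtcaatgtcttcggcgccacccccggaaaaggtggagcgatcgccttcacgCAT
Ndufaf4: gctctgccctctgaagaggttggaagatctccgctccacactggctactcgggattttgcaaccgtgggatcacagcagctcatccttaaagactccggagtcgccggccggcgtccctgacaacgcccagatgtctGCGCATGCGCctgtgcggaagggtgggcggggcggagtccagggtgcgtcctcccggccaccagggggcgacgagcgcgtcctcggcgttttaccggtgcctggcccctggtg
Cox6b1: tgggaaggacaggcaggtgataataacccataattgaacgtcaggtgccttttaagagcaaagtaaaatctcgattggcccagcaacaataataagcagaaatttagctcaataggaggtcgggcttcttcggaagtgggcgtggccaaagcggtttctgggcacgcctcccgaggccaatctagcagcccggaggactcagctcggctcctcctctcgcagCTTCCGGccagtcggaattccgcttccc
Cox6b2: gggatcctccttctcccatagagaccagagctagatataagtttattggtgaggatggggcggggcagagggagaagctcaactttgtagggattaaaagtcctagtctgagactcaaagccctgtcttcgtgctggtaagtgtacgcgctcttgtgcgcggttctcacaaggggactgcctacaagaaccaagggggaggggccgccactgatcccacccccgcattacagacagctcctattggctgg
In the region of Uqcr11 an ETS match began 66 bases before the start, and an NRF-1 core match on the other strand began just before the start and ran past it, so only its first letters are shown. In that of Ndufaf4 overlapping NRF-1 core matches on both strands, which are a palindrome, began 113 and 110 bases before the start. In that of Cox6b1 an ETS match on the opposite strand began 28 bases before the start. The regions of Uqcrfs1 and Cox6b2 held none of the 3 motifs.

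Several facts of the libraries bear on all results. Kept totals ran from 109007 to 12004992 counts, with a median of 1469197. Smarca5 itself, as CPM, the count scaled to a common library size with TMM factors, had a lowest, median and highest of 147, 332 and 788 in wild type and of 3.01, 89.1 and 312 after the maternal deletion. In the TrimAway groups, where the protein and not the message is the target, its medians were 481 uninjected, 644 IgG and 365 anti-SMARCA5. Summed CPM of 10 oocyte markers had a median of 1075 in wild type, with 2852 in replicate 1 and 456 in replicate 2, and of 11540 after the deletion. Medians of these markers were 1591, 1612 and 2037 in the uninjected, IgG and anti-SMARCA5 groups. The 5 genes of the 2-cell list that were in the tables had medians of 327 in wild type and 28.9 after the deletion. Granulosa cell markers had summed medians of 31.1 to 98.8 CPM, and blood and sperm markers of at most 2.7. Of the 13 granulosa markers, 9 had at most 3 counts in every wild type library and 2 in every deletion library. This held for 6, 4 and 1 of them in uninjected, IgG and anti-SMARCA5 embryos. The part of these differences in the results was not tested. The 2 replicates of the deletion experiment were sequenced on different lanes, so replicate and lane cannot be told apart there.

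A few libraries went against their labels. The wild type libraries G05 and H05 of replicate 2 had Smarca5 at 147 and 158 CPM with Gdf9, an oocyte growth factor, at 601.5 and 265 CPM, against 0 to 62.0 CPM for Gdf9 in the other 12 of that replicate. Wild type libraries of replicate 1 reached 250.5 CPM of Gdf9, close to H05, so H05 stood apart within its own replicate and not from all wild type libraries. The library A04 labelled maternal deletion, of replicate 2, had Smarca5 at 290.7 and Gdf9 at 20.4 CPM, against 1044 to 26870 for Gdf9 in the others of its group. The library C02 labelled anti-SMARCA5, of replicate 2, had Trim21 at 0, against 302.5 to 8090 CPM in the others. Trim21 was also at 0 in all IgG libraries of replicate 1, while IgG libraries of replicate 3 had a median of 293 CPM. All libraries were kept as labelled, and counts without the 4 named libraries are given beside the results.

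All 90 genes had more than 3 counts in at least 1 kept library, and 28 had more than 3 counts in at least 90% of the kept libraries. A filter on low counts left 70 of them tested for the maternal deletion and 76 in each TrimAway comparison. The filter was passed in no comparison by 9 of them: Ndufaf3, Ndufa4l2, Atp5g2 and the tissue-restricted isoforms Cox4i2, Cox6a2, Cox7a1, Cox7b2, Cox8b and Cox8c. Levels between genes are given per kilobase of the principal transcript. On that scale, the highest group medians in wild type were those of Cox8a at 414.5 CPM per kilobase, Cox5a at 323.6, Cox4i1 at 240.3, Cox6a1 at 206.5 and Uqcr10 at 205.8, and all but Uqcr10 are complex IV genes. In uninjected embryos they were Cox8a at 517.6, Ndufa4 at 384.4, Ndufb6 at 348.5, Cox7a2 at 284.1 and Cox4i1 at 272.7. Subunits of complex II, which also serves the citric acid cycle, had a median of 9.04 CPM per kilobase in wild type, near that of the complex I assembly factors at 8.20 and below complex I accessory and core subunits at 16.75 and 18.8. Medians were 61.36 for complex III and 72.18 for complex IV.

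The members together took 0.306% to 1.01% of all counts in wild type libraries, with a median of 0.680%, and 0.291% to 1.01% with a median of 0.453% after the maternal deletion. The medians were 0.639% in uninjected, 0.537% in IgG and 0.428% in anti-SMARCA5 embryos. The groups overlapped in each case. The replicates of the deletion experiment went different ways: in replicate 1 the median share was 0.343% in wild type and 0.422% after the deletion, and in replicate 2 it was 0.808% and 0.567%. The mean log2(CPM + 1) over the 90 genes was 0.41 lower after the deletion than in wild type, within the spread of single libraries (SD 0.79). It was 0.71 lower in anti-SMARCA5 than in uninjected embryos (SD 0.49) and 0.40 lower than in IgG embryos (SD 0.56). Transcripts of the 13 protein genes of mitochondrial DNA took a median of 4.32% of counts in wild type and 6.53% after the deletion, and of 10.6%, 17.0% and 24.4% in uninjected, IgG and anti-SMARCA5 embryos. By replicate, these medians were 11.4% in wild type and 8.545% after the deletion in replicate 1, and 2.705% and 4.26% in replicate 2, so the direction differed. Their part in the shares of the nuclear genes was not tested.

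**Figure D1:**
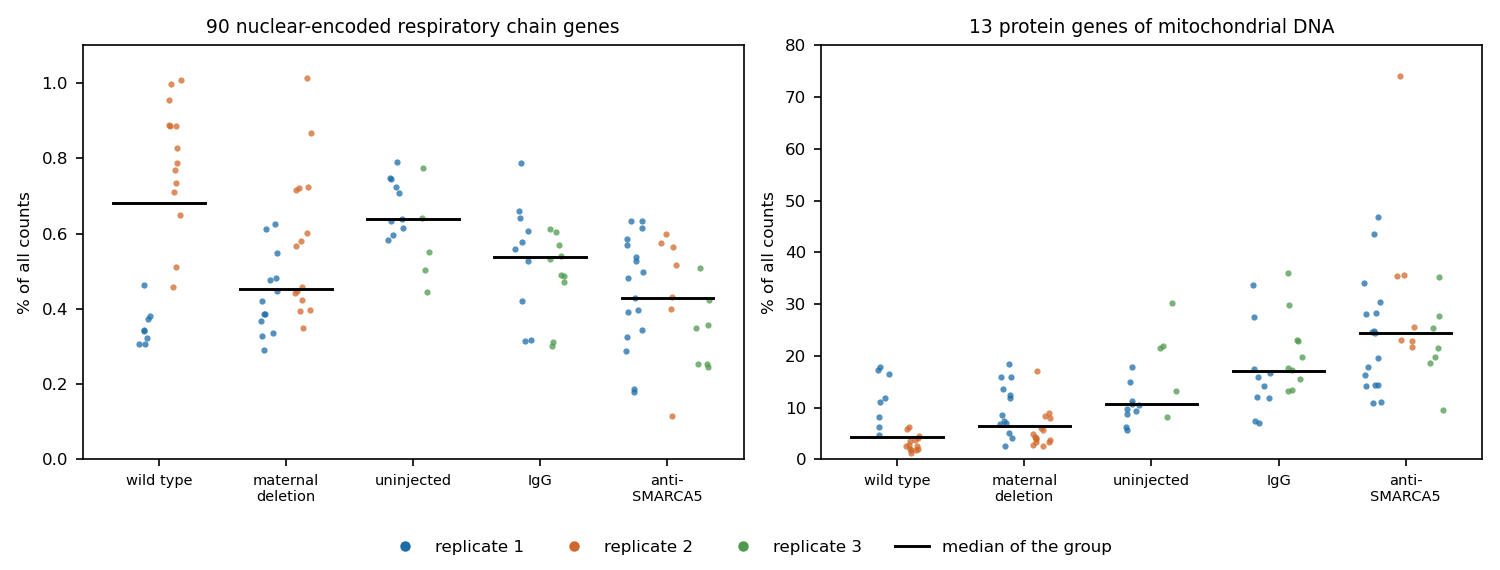
Share of all counts (percent, y axes) taken by the 90 genes (left) and by the 13 protein genes of mitochondrial DNA (right) in each kept library, by group (x axes), with colours for replicate numbers and bars for group medians. For the 90 genes, in replicate 1 the median was 0.343% in wild type and 0.422% after the maternal deletion, and in replicate 2 it was 0.808% and 0.567%.

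After the maternal deletion, genes of the chain moved in both directions, with 7, 4, 3 and 6 called falls in complexes I, III, IV and V and the largest rises in Ndufa1, Ndufa4 and Ndufb8, accessory genes of complexes I and IV. By edgeR's quasi-likelihood test with Benjamini-Hochberg adjustment over all 8518 genes tested, 21 of the 70 genes were lower and 10 were higher. Among all genes tested 26.4% were lower and 30.3% were higher, so the share of members that were lower, 30.0%, was near the background and the share that were higher, 14.29%, was below it. The median log2 change of the members was -0.44 and that of all genes tested 0.18. Below 0 were 42 of the 70 members and 45.8% of all genes. Of the 31 changed members, 28 changed at least 2-fold. Without the 3 libraries of this experiment that went against their labels, the counts were 25 lower and 11 higher, with 28.1% and 32.0% of all genes.

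**Figure D2:**
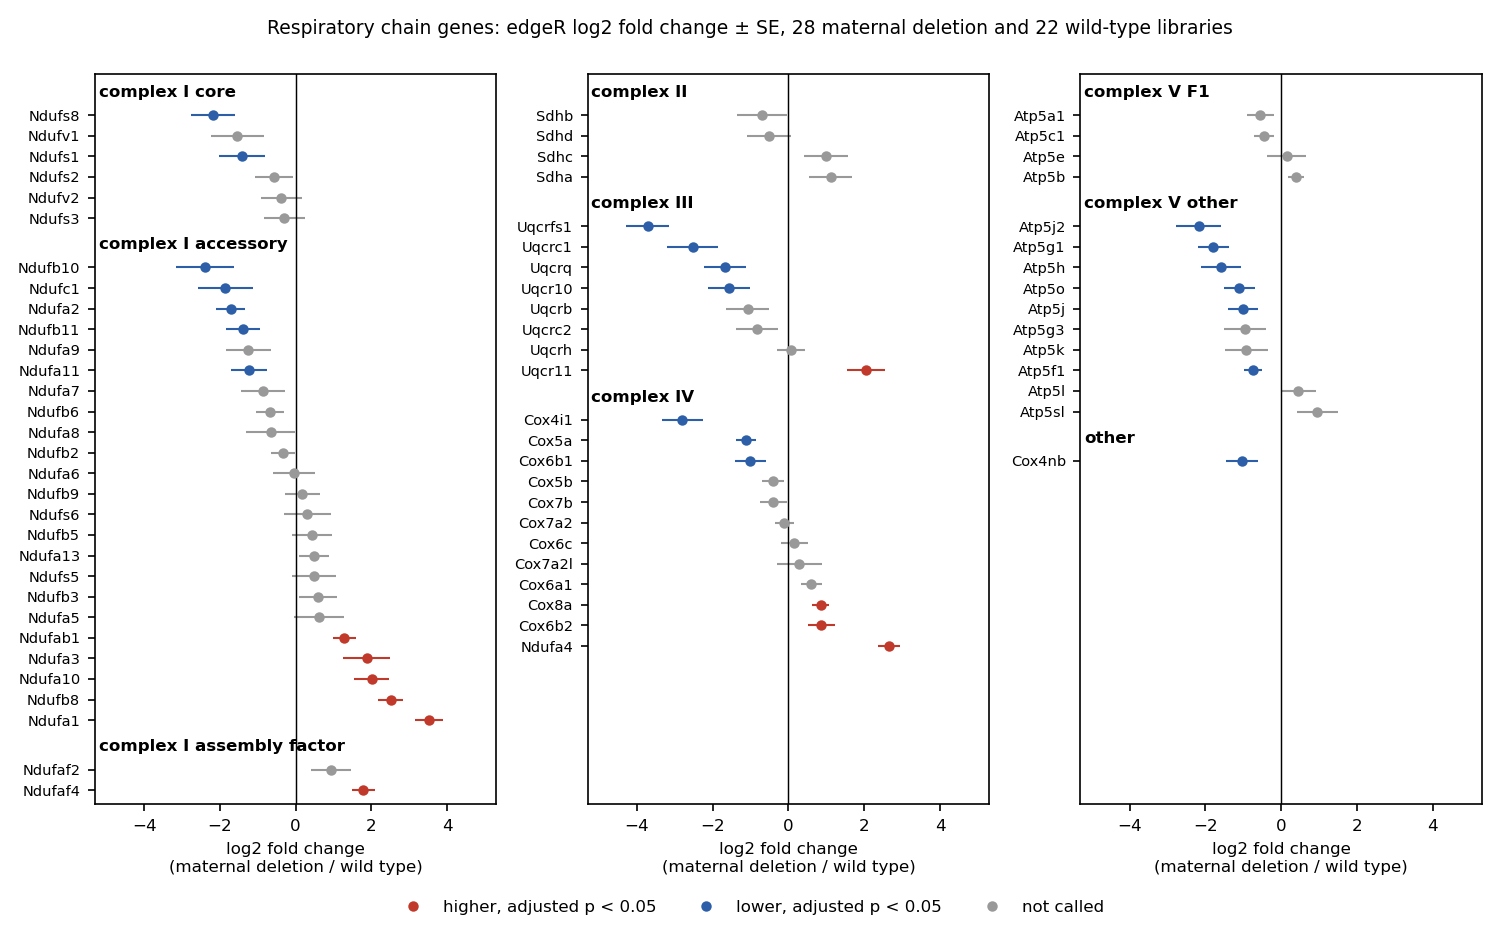
Log2 change of each tested member after the maternal deletion (x axis, log2 scale, edgeR), sorted within its complex (y axis), with bars for 1 standard error and colours for called higher, called lower and not called. Ndufa1, Ndufa4 and Ndufb8 stand at the right with 3.53, 2.67 and 2.51, and Uqcrfs1 and Cox4i1 at the left with -3.71 and -2.80.

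In complex I, the entry point for electrons from NADH, 7 of 29 tested subunits were lower and 5 were higher. These shares were 24.14% and 17.24%, against 26.4% and 30.3% of all genes tested. All 6 tested core subunits, the catalytic part shared with bacteria, had log2 changes below 0 with a median of -0.99, and 2 of them were called. The 23 accessory subunits were split, with 5 higher, 5 lower and a median of 0.175. Ndufa1, an accessory membrane subunit encoded on chromosome X (37187588-37191163, minus strand), had a lowest, median and highest level of 3.33, 22.1 and 78.7 CPM in wild type and of 14.9, 257 and 843 CPM after the deletion. Its groups overlapped, with 26 of 28 deletion libraries above the wild type median. It rose by a log2 change of 3.53 (SE 0.36, adjusted p = 4.7e-11 by edgeR), or 11.5-fold higher. Ndufb8, another accessory subunit, had 0, 22.9 and 60.8 CPM in wild type and 24.0, 134.5 and 583 CPM after the deletion, and all 28 deletion libraries lay above the wild type median. Its log2 change was 2.51 (SE 0.34, adjusted p = 4.19e-08 by edgeR), and the gene lies over Gm20538 on the same strand, so their reads may be shared. Ndufa10 went from 0, 8.08 and 43.2 CPM to 9.97, 39.3 and 221 CPM, a log2 change of 2.005 (SE 0.47, edgeR adjusted p = 0.000347), again with all 28 deletion libraries above the wild type median.

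The falls in complex I included Ndufs8, a core subunit that holds iron-sulfur clusters. Its level was 0, 97.5 and 327 CPM in wild type and 0, 9.33 and 162 CPM after the deletion, with 26 of 28 deletion libraries below the wild type median. The log2 change was -2.18 (SE 0.59, edgeR adjusted p = 0.00156). Ndufb10, an accessory subunit of the membrane arm, fell from a median of 27.9 to 0 CPM (log2 change -2.40, SE 0.76, edgeR adjusted p = 0.0064). Ndufc1, a small accessory subunit, fell from 23.4 to 0 CPM (log2 change -1.855, SE 0.73, edgeR adjusted p = 0.0262). For both genes each group reached 0 CPM and the ranges overlapped. Ndufs8, Ndufb10 and Ndufc1 did not pass the filter with replicate 1 alone. With replicate 2 alone their adjusted p by edgeR was 0.00993, 0.0593 and 0.13, so only Ndufs8 was called there. Of the 2 tested assembly factors of complex I, Ndufaf4 was higher: it ranged over 1.03, 77.6 and 224 CPM in wild type and 55.5, 265 and 859 CPM after the deletion, a log2 change of 1.79 (SE 0.315, edgeR adjusted p = 6.08e-06). In 26 of 28 deletion libraries it was above the wild type median.

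None of the 4 subunits of complex II, succinate dehydrogenase, passed the test by edgeR (0 also at an unadjusted p under 0.05 and by DESeq2). Sdha, the flavoprotein that oxidises succinate, had medians of 20.8 CPM in wild type and 53.1 CPM after the deletion (log2 change 1.12, adjusted p = 0.0856 by edgeR). Sdhb, the iron-sulfur subunit, had a log2 change of -0.69, and the membrane anchors Sdhc and Sdhd had 0.999 and -0.51. Their adjusted p-values were 0.375, 0.136 and 0.457. Group ranges of all 4 began at 0 CPM on both sides and overlapped.

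Complex III, which passes electrons from ubiquinol to cytochrome c, had 4 of its 8 subunits lower and 1 higher, with a median log2 change of -1.32. Uqcrfs1, the Rieske iron-sulfur protein (chromosome 13, 30540308-30545362, minus strand), showed the deepest fall among the members. Its lowest, median and highest levels were 20.4, 89.5 and 256 CPM in wild type and 0, 2.77 and 44.1 CPM after the deletion. All 28 deletion libraries were below the wild type median, 15 of them had at most 3 counts, and the ranges overlapped between 20.4 and 44.1 CPM. The log2 change was -3.71 (SE 0.57, edgeR adjusted p = 5.11e-07), or 13.1-fold lower. Uqcrc1, a core protein of the complex, went from 0, 101 and 362 CPM to 0, 2.90 and 163 CPM (log2 change -2.53, SE 0.67, edgeR adjusted p = 0.00134). Its wild type median was 12.8 CPM in replicate 1 and 192 CPM in replicate 2, so the range within wild type is wide. Uqcrq, another small subunit of the complex, went from a median of 39.9 to 6.24 CPM (log2 change -1.67, SE 0.565, edgeR adjusted p = 0.0102). Uqcrc1, Uqcrq and a further subunit, Uqcr10, did not pass the filter with replicate 1 alone. With replicate 2 alone their adjusted p by edgeR was 0.00656, 0.0336 and 0.0216.

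Uqcr11, a small accessory subunit of complex III, went the other way. It ranged over 0, 21.1 and 119 CPM in wild type and 0, 102.1 and 583 CPM after the deletion, with 21 of 28 deletion libraries above the wild type median. The log2 change was 2.05 (SE 0.51, edgeR adjusted p = 0.000698). Replicates set different base levels, with wild type medians of 3.67 CPM in replicate 1 and 47.4 CPM in replicate 2, and the deletion medians of 17.9 and 118 CPM were higher in both.

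In complex IV, cytochrome c oxidase, 3 of 12 tested genes were higher and 3 were lower, and the median log2 change was 0.02. Each share was 25.0%, against 30.3% higher and 26.4% lower among all genes tested. Ndufa4, a protein that was first assigned to complex I and is now placed with complex IV, was the largest rise of the group. It ranged over 16.2, 79.5 and 287.5 CPM in wild type and 49.3, 554 and 1546 CPM after the deletion, with 27 of 28 deletion libraries above the wild type median. This was a log2 change of 2.67 (SE 0.29, edgeR adjusted p = 1.94e-10), or 6.35-fold. Cox8a, a small structural subunit, ranged over 126, 228 and 711 CPM in wild type and 117, 450 and 1141 CPM after the deletion (log2 change 0.85, SE 0.23, edgeR adjusted p = 0.00147). The wild type range of Cox8a lay within the deletion range, with 25 of 28 deletion libraries above the wild type median. With replicate 2 alone its log2 change was 1.25 (edgeR adjusted p = 0.00127), and with replicate 1 alone it was 0.37 and not called (adjusted p = 0.382).

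Cox4i1, the common form of the regulatory subunit 4, was the deepest fall of complex IV. It had 0, 181 and 525 CPM in wild type and 0, 9.67 and 260 CPM after the deletion, where 10 of 28 libraries held at most 3 counts. On the log2 scale it changed by -2.80 (SE 0.54, edgeR adjusted p = 2.29e-05), with 27 of 28 deletion libraries below the wild type median. Cox4i1 overlaps Gm20388 on the same strand. Cox5a, a subunit on the matrix side of the enzyme (chromosome 9, 57521232-57532424, plus strand), had 65.6, 209 and 452 CPM in wild type and 12.8, 75.7 and 376 CPM after the deletion. It fell by 1.12 on the log2 scale (SE 0.275, edgeR adjusted p = 0.000586), with 26 of 28 deletion libraries below the wild type median. The fall of Cox5a was uneven between replicates: with replicate 2 alone the log2 change was -1.56 (adjusted p = 0.000373), and with replicate 1 alone it was -0.32 (adjusted p = 0.553). The replicate medians were 120 against 99.2 CPM in replicate 1 and 266 against 59.2 CPM in replicate 2.

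**Figure D3:**
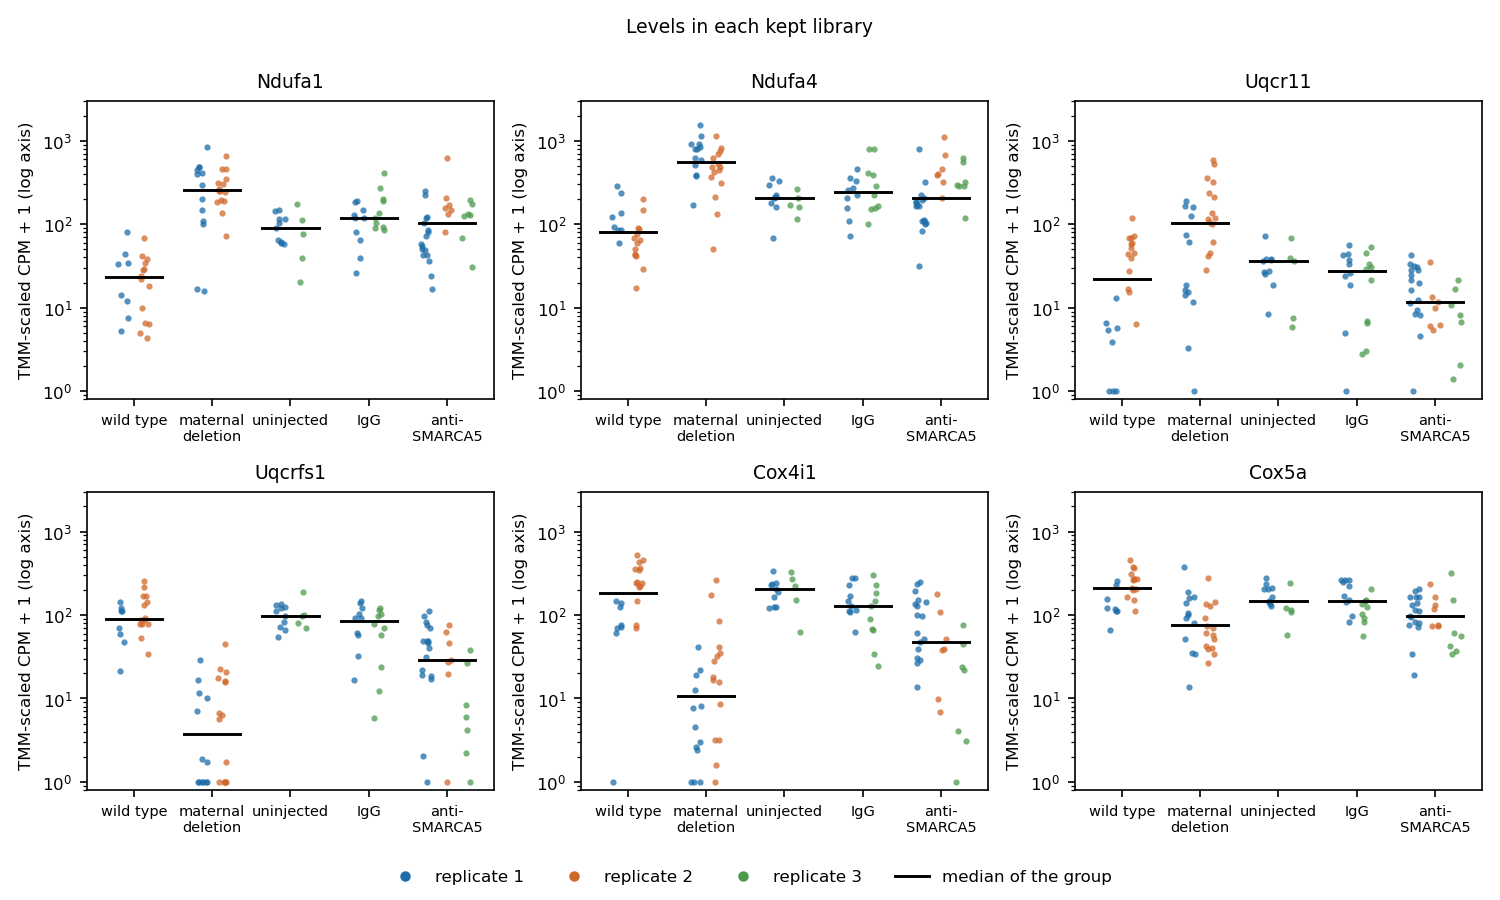
Levels in every kept library (TMM-scaled CPM plus 1 on a log axis, y) of 6 members by group (x axis), with each point a library, colours for replicate numbers and bars for group medians. Uqcrfs1 and Cox4i1 lie lowest after the maternal deletion, with medians of 2.77 and 9.67 CPM, and Ndufa1 and Ndufa4 lie highest there, with medians of 257 and 554 CPM.

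Alternative forms of complex IV subunits were compared within each library per kilobase. Cox6b2, a form known from testis, took a median of 48.6% of Cox6b2 plus Cox6b1 in wild type embryos and was above 50% in 11 of 22 libraries. The wild type replicates stood apart, with 76.1% in replicate 1 (8 of 8 libraries above 50%) and 20.4% in replicate 2 (3 of 14). After the deletion the median was 80.9% (26 of 28 above 50%), with 78.7% and 84.5% in replicates 1 and 2. G05 (83.0%) and H05 (62.7%), which went against their labels, were among the 3 wild type libraries of replicate 2 above 50%. The deletion library A04, also against its label, had 58.6%. Medians were 75.7% in uninjected, 73.8% in IgG and 82.4% in anti-SMARCA5 embryos. Cox6b2 had a log2 change of 0.87 after the deletion (edgeR adjusted p = 0.0336), with 0.03 in replicate 1 alone and 1.60 in replicate 2 alone. Cox6b1 had -1.004 (edgeR adjusted p = 0.0356).

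**Figure D4:**
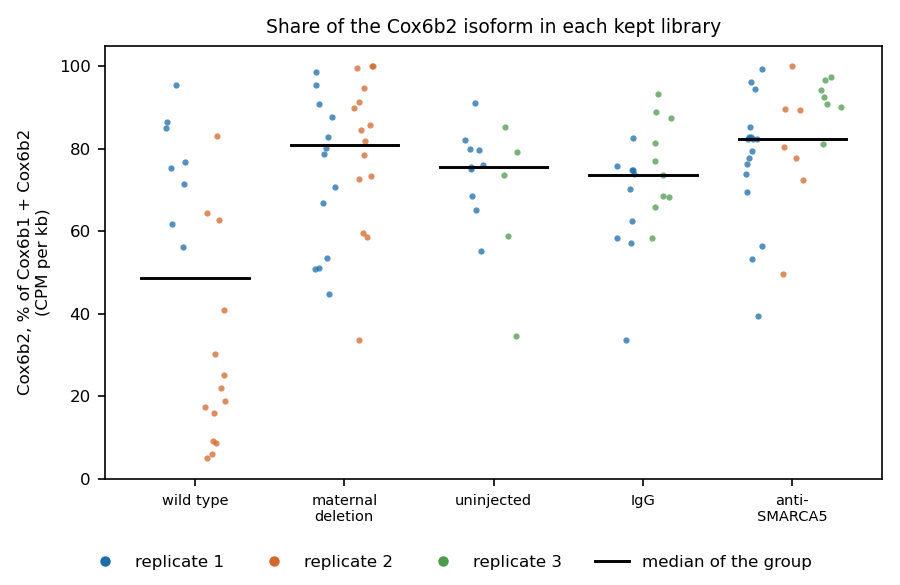
Share of Cox6b2 in Cox6b2 plus Cox6b1 per kilobase (percent, y axis) in each kept library by group (x axis), with colours for replicate numbers and bars for group medians. Wild type replicate 2 has a median of 20.4% and the medians of the other sets run from 72.0% to 92.6%.

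Complex V had 6 of 14 tested genes lower and none higher (0 by edgeR and by DESeq2), with a median log2 change of -0.84. The share lower was 42.86%, against 26.4% of all genes tested, of which 30.3% were higher. By edgeR 0 of the 4 tested subunits of the catalytic F1 part and 6 of the 10 other tested genes placed with complex V were called lower, a difference that was not tested. The F1 part also had 0 at an unadjusted p under 0.05, and DESeq2 called Atp5c1, its central stalk subunit (log2 change -0.616, adjusted p = 0.0355). Atp5g1, one of the genes of the rotating c-ring, had 59.3, 296 and 649 CPM in wild type and 0, 41.5 and 546 CPM after the deletion. It changed by -1.79 on the log2 scale (SE 0.42, edgeR adjusted p = 0.000378), with 26 of 28 deletion libraries below the wild type median. Atp5j2, a subunit of the membrane part, fell from a median of 37.1 to 8.004 CPM (log2 change -2.175, SE 0.598, edgeR adjusted p = 0.00191). Atp5h, of the peripheral stalk, fell from 82.0 to 6.65 CPM (log2 change -1.58, SE 0.53, edgeR adjusted p = 0.0098), and 12 of 28 deletion libraries held at most 3 counts of it. The ranges of all 3 genes overlapped between the groups. Atp5j2 and Atp5h did not pass the filter with replicate 1 alone. With replicate 2 alone their adjusted p by edgeR was 0.00733 and 0.0607, so Atp5h was not called. With the replicate block Atp5j2 was not called (edgeR adjusted p = 0.072).

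The deletion result rested in part on which pool of embryos was read. With replicate 1 alone, 41 members were tested, 10 were higher and 5 were lower, and their median log2 change was 0.27, against 23.6% higher and 20.2% lower among all genes. With replicate 2 alone, 80 members were tested, 10 were higher and 13 were lower, with a median of -0.55, against 24.1% and 15.7% of all genes. Of the 41 members tested in both, 35 (85.4%) had the same sign in the 2 replicates, against 80.1% of the 6275 genes so tested. No member differed between the replicates in its change after the deletion by edgeR's interaction test (0 of 70, at 0.763% of all genes, with 11 at an unadjusted p under 0.05). Without the libraries against their labels, an alternative chosen after seeing the data, 5 members differed, at 12.6% of all genes. These were Atp5j2, Ndufs5, Cox5a and Cox7a2, whose change was lower in replicate 2 by log2 differences of -4.15, -3.78, -1.74 and -1.35, and Cox6b2, whose change was higher by 2.25. The rises of Ndufa1 (3.41 and 3.675), Ndufa4 (2.45 and 2.86) and Ndufb8 (2.59 and 2.72) and the falls of Uqcrfs1 (-3.98 and -3.50), Cox4i1 (-3.24 and -2.51) and Atp5g1 (-2.33 and -1.47) were present with replicate 1 alone and with replicate 2 alone, as log2 changes in that order.

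In the TrimAway experiment edgeR called 22 members against uninjected and 1 against IgG embryos. Of all genes tested, 2999 of 10750 and 317 of 10447 were called. With the replicate number as a block, 31 and 11 members were called, and 3426 and 2691 of all genes. The 7 anti-SMARCA5 libraries of replicate 2 had no kept uninjected or IgG library of that number beside them. Without replicate 2, edgeR called 21 members against uninjected and 1 against IgG embryos, and 2921 of 10283 and 591 of 10100 genes. The difference between the controls was not tested. Against uninjected embryos, 20 of 76 members were lower and 2 were higher by edgeR, where 10.4% of all 10750 genes tested were lower and 17.5% were higher. The share of members lower was 26.32%. Their median log2 change was -0.61 against 0.13 for all genes, and 61 of 76 were below 0, against 44.6% of all genes. The balance of rises and falls over all genes depended on scaling: with total counts in place of TMM, 17.4% of all genes were lower and 3.8% higher, the median of all genes moved to -0.29, and 31 members were lower and 1 was higher with a median of -0.99. Falls were called in 4 of 31 complex I subunits, 4 of 8 of complex III, 5 of 13 of complex IV and 7 of 16 of complex V, among them 3 of the 5 F1 subunits. None of the 4 complex II subunits was called (0 by edgeR, by DESeq2 and at an unadjusted p under 0.05). Without replicate 1, which leaves 5 uninjected libraries, edgeR called 0 members, where 0.00948% of all genes were called, and 16 members had an unadjusted p under 0.05. Without replicate 3, 12 members were lower and 2 were higher, at 5.47% and 12.5% of all genes. Without the library C02 the counts were 18 lower and 2 higher, at 10.5% and 17.5% of all genes.

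Ndufb7, an accessory subunit of complex I, showed the largest called fall against uninjected embryos, from 1.31, 9.88 and 48.9 CPM to 0, 2.58 and 17.5 CPM (log2 change -1.60, SE 0.53, edgeR adjusted p = 0.0211). Both groups held low counts and overlapped. Uqcrfs1 had 53.8, 96.1 and 188 CPM in uninjected, 4.79, 83.6 and 147 CPM in IgG and 0, 27.7 and 112 CPM in anti-SMARCA5 embryos. Its log2 change was -1.49 against uninjected embryos (SE 0.40, edgeR adjusted p = 0.00698) and -1.07 against IgG embryos, where it was not called (adjusted p = 0.0922). The groups overlapped, and anti-SMARCA5 medians were 45.2, 27.7 and 5.01 CPM in replicates 1, 2 and 3. Cox4i1 had 60.8, 206 and 336 CPM in uninjected, 23.4, 127 and 297.5 CPM in IgG and 0, 46.2 and 248 CPM in anti-SMARCA5 embryos. Against uninjected embryos its log2 change was -1.40 (SE 0.39, edgeR adjusted p = 0.00854), and against IgG embryos it was -0.925 and not called (adjusted p = 0.11). Ndufs7, a core subunit of complex I, had a log2 change of -1.37 (adjusted p = 0.0379) and Atp5j2 one of -1.30 (adjusted p = 0.0104), both against uninjected embryos by edgeR.

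The called rises were Ndufaf4 and Ndufab1. That of Ndufab1 was lost with total counts (log2 change 0.456) and without replicate 1 or replicate 3, and that of Ndufaf4 without replicate 1. Ndufaf4, the assembly factor, had 41.6, 110 and 199 CPM in uninjected, 24.7, 113 and 640 CPM in IgG and 51.4, 195 and 751 CPM in anti-SMARCA5 embryos. Against uninjected embryos its log2 change was 1.26, SE 0.30, edgeR adjusted p = 0.00312 (26 of 31 libraries lay above the median of uninjected embryos), and against IgG embryos it was 0.77 and not called (adjusted p = 0.112). Ndufab1, the mitochondrial acyl carrier protein and an accessory subunit of complex I, had medians of 70.2 CPM in uninjected and 104 CPM in anti-SMARCA5 embryos. Its log2 change was 1.08 (SE 0.29, edgeR adjusted p = 0.00603), and 21 of 31 libraries lay above the uninjected median. Ndufab1 also had a median of 101 CPM in IgG embryos, and its log2 change against IgG was 0.295.

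Against IgG embryos, 1 of 76 members was lower and none was higher (0 by edgeR), where 1.3% of all 10447 genes tested were lower and 1.73% were higher. At an unadjusted p under 0.05 there were 16 members and 2762 of all genes. The called gene was Ndufb2, an accessory subunit of complex I that overlaps several genes, with 10.4, 42.7 and 130 CPM in IgG and 0, 19.6 and 70.3 CPM in anti-SMARCA5 embryos. Its log2 change was -0.94 (SE 0.28, edgeR adjusted p = 0.0475), with 27 of 31 libraries below the IgG median, and over 11 alternatives its adjusted p ran from 0.0111 to 0.424. Without replicate 1, whose IgG libraries had no Trim21 counts, edgeR called 0 members at 0.0% of all genes, and 6 members had an unadjusted p under 0.05. With the replicate number as a block, 9 members were lower and 2 were higher, and all genes then had 13.6% lower and 12.1% higher. The 9 included Uqcrfs1 (log2 change -1.50) and Cox4i1 (-1.30), and the rises were Ndufaf4 (1.01) and Ndufa10 (1.59). The median log2 change of all 76 was -0.38 against 0.04 for all genes, and 59 members were below 0, against 48.0% of all genes. Without the library C02, 1 member was lower and none was higher, at 2.24% and 2.77% of all genes.

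The embryos labelled IgG gave no called member against uninjected embryos (0 of 76 by edgeR, at 0.0% of all 9915 genes). This group pooled replicate 1, whose libraries had no Trim21 counts, with replicate 3, where Trim21 was counted. At an unadjusted p under 0.05 there were 8 members and 1440 of all genes, and DESeq2 called 1 member, Ndufab1 (log2 change 0.835, adjusted p = 0.0265). The median log2 change of the members was -0.22 and that of all genes 0.03. The IgG and uninjected groups are each shared between comparisons here, so the TrimAway comparisons are not independent of each other.

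The deletion and the comparison of anti-SMARCA5 with uninjected embryos have no library in common, and 66 members were tested in both. Of 21 lower after the deletion and 16 lower after TrimAway, 9 were lower in both, which is 42.86% of the first list and 56.25% of the second: Uqcrfs1, Uqcrc1, Uqcrq, Cox4i1, Cox6b1, Atp5g1, Atp5h, Atp5j2 and Atp5o. Over all 8295 genes tested in both, the same shares were 32.3% and 73.3%. With the replicate block the deletion calls of Atp5j2, Uqcrq and Cox6b1 were lost, and against uninjected embryos Uqcrc1 was called in 4 and Atp5g1 in 5 of 11 alternatives. Atp5o overlaps Donson and Cryzl1 on the same strand, so their reads may be shared. After the deletion Atp5o was not called with replicate 1 alone or replicate 2 alone (edgeR adjusted p = 0.0623 and 0.109). Of 9 higher after the deletion and 2 higher after TrimAway, Ndufab1 and Ndufaf4 were in both, and over all genes 43.6% and 66.0% were. Uqcr11 was called in both with opposite signs, at 2.05 after the deletion and -1.04 after TrimAway (SE 0.37, edgeR adjusted p = 0.0314), where its median went from 34.8 CPM in uninjected to 10.7 CPM in anti-SMARCA5 embryos. The TrimAway call of Uqcr11 was kept in 7 of 11 alternatives. It was lost with at least 500000 counts and with each replicate left out in turn. The members that were lower after the deletion had a median log2 change of -0.82 against uninjected embryos, with 19 of 21 below 0, where 52 of all 66 members were below 0 whatever their call and 87.2% of all genes called lower after the deletion were. Those that were higher had 0.47, with 7 of 9 above 0, where 91.1% of all genes called higher after the deletion were. The largest rises after the deletion were not called after TrimAway: Ndufa1 had 0.47 (adjusted p = 0.257), Ndufa4 0.57 (adjusted p = 0.136) and Ndufb8 -0.28 (adjusted p = 0.341). Cox5a had medians of 147, 147 and 97.1 CPM in uninjected, IgG and anti-SMARCA5 embryos and log2 changes of -0.525 and -0.44, and neither was called (adjusted p = 0.0908 and 0.192).

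**Figure D5:**
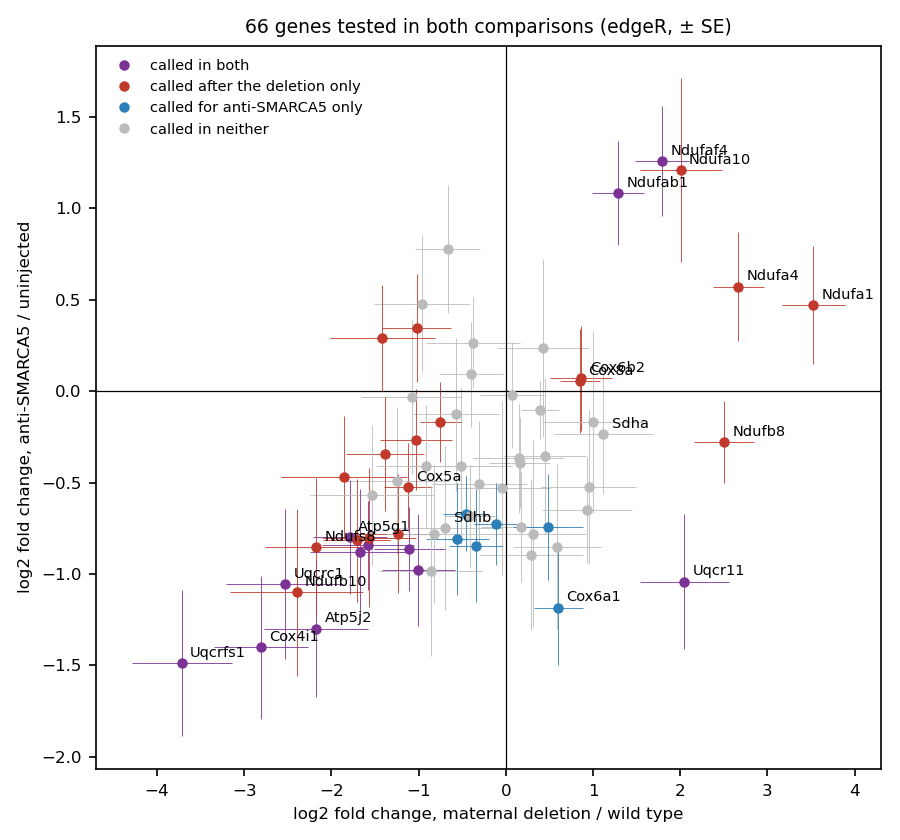
Log2 change of each member after the maternal deletion (x axis) against its log2 change in anti-SMARCA5 compared with uninjected embryos (y axis), both from edgeR with bars for 1 standard error, with colours for where it was called. Uqcrfs1 and Cox4i1 lie at the lower left, Ndufaf4 and Ndufab1 at the upper right, and Uqcr11 at the lower right with 2.05 and -1.04.

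The difference between the changes was tested in 1 fit of 4 groups, as the deletion against wild type minus anti-SMARCA5 against IgG. It was called for 10 of 81 members, 6 higher and 4 lower, where 10.5% and 8.73% of all 12035 genes tested were. The change after the deletion was higher for Ndufa1, by 3.62 on the log2 scale (adjusted p = 1.28e-09), and for Uqcr11 by 2.77 (0.000808), Ndufa4 by 2.53 (1.24e-06), Ndufa3 by 2.37 (0.0289) and Ndufb8 by 2.36 (2.59e-06), with edgeR's adjusted p in each parenthesis. It was lower for Uqcrfs1, with a difference of -2.71 (adjusted p = 0.00305 by edgeR), and for Cox4i1, with -1.91 (adjusted p = 0.0308). With the replicate block the difference of Cox4i1 was -1.56 and no longer called (adjusted p = 0.104). Without the libraries against their labels, an alternative chosen after seeing the data, 10 members were higher and 9 were lower, at 16.8% and 10.6% of all genes. The design sets deletion and TrimAway on different lanes, which cannot be told apart from the way SMARCA5 was removed.

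Other genes of the pathway that the name rule did not take, such as electron carriers, assembly factors and regulators, were described from a list of 73 of which 71 were in the tables. After the deletion 21 of 47 tested were lower and 8 were higher, with a median log2 change of -0.94, against 26.4% lower, 30.3% higher and a median of 0.18 over all genes. Cyc1, the cytochrome of complex III that hands electrons to cytochrome c, had a log2 change of -2.585 (adjusted p = 0.000831 by edgeR), and Cycs, somatic cytochrome c, had -0.95 (adjusted p = 0.0141). The transcription factors matched above fell as well: Gabpa had -2.77 (adjusted p = 1.45e-07), Yy1 -2.055 (adjusted p = 7.45e-06) and Nrf1 -1.12 (adjusted p = 0.0021), all by edgeR. Gabpa overlaps Atp5j on the opposite strand. Tfam, which packs mitochondrial DNA and starts its transcription, had 0.96 and was not called (adjusted p = 0.231), and Esrra and Ppargc1a were not tested. Polrmt, the RNA polymerase of mitochondria, had -3.96 (adjusted p = 5.52e-05), and Ecsit, an assembly factor of complex I, had -3.28 (adjusted p = 4.26e-05). The largest called rise was that of Nubpl, which delivers iron-sulfur clusters to complex I, with 3.48 (adjusted p = 9.32e-05).

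The same list had 9 of 60 tested genes lower and 5 higher in anti-SMARCA5 against uninjected embryos, with a median log2 change of -0.26, against 10.4% lower, 17.5% higher and a median of 0.13 over all genes. Polrmt had -1.97, Ecsit -1.46, Gabpa -1.025 (adjusted p = 0.015) and Nrf1 -0.795 (adjusted p = 0.027), while Yy1 had -0.08 and Cycs -0.12 and were not called. The 5 called rises were those of Cyct, Sdhaf4, Cox10, Polg and Tmem70. The 5 largest called falls also held Cox16, Pprc1 and Sco2. Against IgG embryos 1 of 58 was higher, Cox10, which makes heme for complex IV (log2 change 1.25, edgeR adjusted p = 0.0277), and none was lower, at 1.73% and 1.3% of all genes.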

How the data were processed

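The members and gene lists were chosen with earlier results of these data known. RNA was read in 138 wells, 3 of them without an embryo. The authors deposited 2 tables of counts per gene, not normalized. Per the submitters' processing notes, Trim Galore 0.6.5, cutadapt 2.3, HISAT2 2.1.0 and GRCm38 were used; annotation release, strand and handling of reads matching several places are not given in the sources used here. Lines sharing an identifier (57) were summed, which left 25900 genes. Odd counts outnumbered even ones (134662 values of 1, 30228 of 2, 84269 of 3), so counting error may be understated. Of 135 embryo libraries 19 with under 100000 counts were left out, among them all 6 IgG libraries of replicate 2. Groups came from the labels.

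Each comparison was fitted on its own groups with edgeR 4.0.16 in R 4.3.3 (TMM, filterByExpr, robust quasi-likelihood F test), called at a Benjamini-Hochberg adjusted p under 0.05 over all genes tested. The SE is the log2 change divided by the square root of F. Levels are CPM scaled by TMM factors (0.2537 to 1.801), and per kilobase with principal transcripts of GENCODE M21, where 51 of 90 members had the same span as in the tables. Promoters are from RefSeq (GRCm38.p6). The steps were tested on simulated data. The genes named were Cox5a, the 3 largest called rises and falls in each complex and assembly group after the deletion, all of complex II, the 5 largest called rises and falls in the other comparisons, isoform pairs, and for the pathway list the 5 largest in each direction and 8 fixed genes; others named were chosen after their values were seen. Alternatives were the replicate block, DESeq2 1.42.0, total counts, upper-quartile scaling, no filter, other minimum totals and each replicate left out.

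The labels number pools, and deviations of same-numbered group means correlated across genes at 0.54 (deletion), 0.59 (anti-SMARCA5 and IgG), 0.079 (anti-SMARCA5 and uninjected) and 0.427 (IgG and uninjected), with 2 shared numbers in each.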

Additional observations from a re-analysis of the deposited data

Results flagged for a closer look

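The change after the maternal deletion differed from that of anti-SMARCA5 against IgG, by a test of the difference itself, for 10 members. The log2 differences were -2.83 for Ndufaf1, -2.71 for Uqcrfs1, -1.91 for Cox4i1, -1.3 for Cox4nb, 1.27 for Cox6a1, 2.36 for Ndufb8, 2.37 for Ndufa3, 2.53 for Ndufa4, 2.77 for Uqcr11 and 3.62 for Ndufa1. With the replicate block the differences of Ndufaf1 (-1.63, adjusted p = 0.34), Cox4nb (-1.13, adjusted p = 0.128) and Cox4i1 (-1.56, adjusted p = 0.104) were no longer called by edgeR. Ndufaf1, an assembly factor of complex I, was filtered out of the fit of the deletion groups alone. Cox6a1, a subunit of complex IV, was not called after the deletion (log2 change 0.60, edgeR adjusted p = 0.0596) and was lower against uninjected embryos (log2 change -1.18, edgeR adjusted p = 0.00587).

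The wells without an embryo held a few counts summed over the member genes: 4 counts in well G03, 13 in H03 and 5 in F05. The sums exceed 3 counts, the limit that a sum of 0 allows, but came from 2, 3 and 4 genes with at most 3, 9 and 2 counts each.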

How the results depend on the processing

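The number of members called after the maternal deletion, 31, ran from 15 (without replicate 2) to 23 (without replicate 1) when a replicate was left out and was within 1.5 times of 31 otherwise, with 29 under the replicate block. Cox6b1 turned from -1.004 to 0.113 without replicate 2 (adjusted p = 0.867), and was -1.337 without replicate 1. For anti-SMARCA5 against IgG, 1 member was called, and 11 with the replicate block, 3 with DESeq2, 4 with no filter on low counts, 2 with libraries of at least 1000 counts, 0 with total counts, with upper-quartile scaling and with at least 500000 counts, and 0 to 1 with a replicate left out. Against uninjected embryos, 22 were called, and 0 (without replicate 1) to 21 (without replicate 2) with a replicate left out, 14 without replicate 3, and 31 with the replicate block. For IgG against uninjected embryos, 0 were called and 1 with DESeq2. The difference between deletion and TrimAway was called for 10 members, 7 with the replicate block and 19 without the libraries against their labels. The interaction between replicates was called for 0 members and for 5 without those libraries. Both alternatives without those libraries were chosen after seeing the data. With 2 shared pool numbers in each comparison, the block checks the pools and not the matings. Stability was summarised only for the members picked for naming by the rules above. Among these, kept in all 10 alternatives after the deletion were the calls of Atp5g1, Cox4i1, Ndufa1, Ndufa10, Ndufa4, Ndufab1, Ndufaf4, Ndufb8, Uqcr11 and Uqcrfs1. Those of Ndufs8 and Uqcrc1, which did not pass the filter without replicate 2, were kept in all 9 that tested them. Ndufa2, a complex I subunit outside that summary, was lower with replicate 1 alone (log2 change -1.66, edgeR adjusted p = 0.0096). With replicate 2 alone it was lower too (log2 change -1.53, edgeR adjusted p = 0.0111). The cause of the differences between these alternatives was not tested, and a left-out replicate also leaves fewer libraries. The difference between group means of log2(CPM + 1) over members kept its sign except for the deletion, where it ran from -0.633 to 0.142. Depth limits genes at or under 3 counts, where a level of 0 does not show absence.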

Other observations

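Of the c-ring genes of ATP synthase, Atp5g1 took a median of 74.0% of Atp5g1 plus Atp5g3 per kilobase in wild type and 66.4% after the deletion, and 56.3%, 45.3% and 38.9% in uninjected, IgG and anti-SMARCA5 embryos. The replicates did not all share this order: wild type and deletion medians were 57.2% and 56.5% in replicate 1 and 83.2% and 70.9% in replicate 2. In replicate 3 the IgG median was 34.55% and the anti-SMARCA5 median 38.9%, while in replicate 1 they were 56.8% and 47.45%. Cox6a2, the form of subunit 6a known from muscle, was above 3 counts in 20 of 28 deletion libraries and 1 of 22 wild type libraries, at a median of 5.5 CPM after the deletion, and was below the filter for testing. The median kept total was 1618485 counts in the deletion group and 545264 in wild type, so these counts of libraries do not compare like depths. Cox7b2 was at 0 counts in all 28 deletion libraries, and Cox8b in all 22 wild type libraries.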
